A study of Mus musculus with 10 samples.

Results

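Epithelial cells are held together by tight junctions, adherens junctions and desmosomes, coupled to each other by gap junctions and fixed to the matrix by integrins. Simple epithelia such as the kidney tubule fill their cytoplasm with keratin filaments of Krt8 and Krt18, which pair with each other, and of Krt7 and Krt19. In the collecting duct the claudins of the tight junction set the barrier to sodium and chloride between cells, while Cdh1 (E-cadherin) and the catenins carry adhesion. The clones described here are all those whose probe annotation gives a single gene symbol of these families: claudins, keratins, cadherins and protocadherins, catenins, Tjp, Ocln, F11r, Jup, Dsp, desmogleins, desmocollins, plakophilins, integrins, Epcam, connexins and Cd44. The rule found 65 clones of 49 genes among 15600 spotted clones, of which 9866 carry a single symbol. Both Ctnnbl1, a spliceosome-associated protein, and Itgb3bp, a centromere protein, match by the letters of their symbol alone and are counted but are not junction proteins.

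RNA came from M-1 cells, a line derived from mouse cortical collecting duct, grown to confluence and then kept in medium with charcoal-treated serum. Treated cells received 100 nM dexamethasone, a synthetic glucocorticoid, for 3 h, and control cells received steroid-free medium, as the labels state for 2 of the control channels. All of the RNA was from this 1 line. Each array was read in Cy3 and Cy5. Of the 10 channels, 7 are titled control and 3 are titled treated. The channels form 2 control pairs with control RNA in both dyes, and 3 treated pairs with control RNA in Cy3 and treated RNA in Cy5. For the other 5 of these 7 the treatment field names dexamethasone, against their titles, which set the groups here. No dye was swapped, and the treated pairs lie on other arrays than the control pairs, so treatment and array cannot be told apart. A dye effect shared by all arrays drops out of the difference between treated and control pairs. Nothing says that pairs came from separate cultures, so p-values measure the spread between these samples only, which may be technical.

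The deposited values are spot intensities and every clone has 2 neighbouring spots. There are values for 31022 and 30942 spots in the control pairs but for 3778, 3994 and 4002 spots in the treated pairs, where small log2 ratios are missing and the rest lie on both sides of an empty band. For a junction clone without a treated value, a small ratio and an unusable spot cannot be told apart. Baseline brightness in the control pairs and the listed treated spots are therefore described separately. Percentiles below are the rank of a clone's mean intensity among all clones of the same channel. A spot's brightness also depends on the cDNA it carries, so these ranks place clones on the array and do not order genes by transcript level. The files hold no background or empty-spot intensity, so a dim clone is not shown to lack its transcript.

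Keratins of simple epithelium, Epcam and several tight junction clones were among the brightest on the array in the control pairs. These pairs are taken as untreated from their titles, although some of their channels must be among those whose label mentions dexamethasone. Of the 65 junction clones, 20 (from 16 genes) lay in the brightest 25% in all 4 channels of the control pairs, a share of 30.8% against 14.7% of all 15561 clones with values there and 18.5% of those with a single symbol. A further 13 junction clones lay in the dimmer 50% in all 4 channels, 20% against 26.9% of all clones and 19.3% of those with a single symbol. The remaining 32 were mixed. The median of the clones' mean percentiles was 61.1, against 46.3 over all clones and 55.0 over those with a single symbol. The members were proposed with results of these data known, so no test was made of this difference.

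The promoter windows of the genes whose clones were among the brightest, Krt8, Krt18, Krt7 and Epcam, are shown because these clones gave the strongest epithelial signal. Sequences are from RefSeq on build GRCm38.p6, from 250 bases before to 50 bases after the annotated start, read 5′ to 3′ along the gene's strand. The windows are Krt8 at chr15:102004293-102004592 on the minus strand, Krt18 at chr15:102027966-102028265 on the plus strand, Krt7 at chr15:101412153-101412452 on the plus strand and Epcam at chr17:87635729-87636028 on the plus strand. Krt8 and Krt18 are next to each other among protein-coding genes on chromosome 15. Capitals mark the hexamers CAGGTG (the E-box bound by Snail-family repressors), GGGCGG (the Sp1 box), TATAAA and AGAACA (one arm of the glucocorticoid response element), each searched on both strands.
Krt8: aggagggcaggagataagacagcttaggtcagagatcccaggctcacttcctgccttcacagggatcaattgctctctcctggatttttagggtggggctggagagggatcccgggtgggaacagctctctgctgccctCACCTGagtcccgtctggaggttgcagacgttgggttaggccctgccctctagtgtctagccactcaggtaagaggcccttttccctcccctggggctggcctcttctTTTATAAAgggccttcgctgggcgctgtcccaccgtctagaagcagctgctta
Krt18: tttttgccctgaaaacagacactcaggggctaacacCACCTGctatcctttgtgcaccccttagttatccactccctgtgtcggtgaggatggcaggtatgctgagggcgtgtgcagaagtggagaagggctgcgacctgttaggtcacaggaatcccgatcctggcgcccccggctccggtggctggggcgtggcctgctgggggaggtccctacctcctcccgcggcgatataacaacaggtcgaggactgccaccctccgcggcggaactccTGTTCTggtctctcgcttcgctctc
Krt7: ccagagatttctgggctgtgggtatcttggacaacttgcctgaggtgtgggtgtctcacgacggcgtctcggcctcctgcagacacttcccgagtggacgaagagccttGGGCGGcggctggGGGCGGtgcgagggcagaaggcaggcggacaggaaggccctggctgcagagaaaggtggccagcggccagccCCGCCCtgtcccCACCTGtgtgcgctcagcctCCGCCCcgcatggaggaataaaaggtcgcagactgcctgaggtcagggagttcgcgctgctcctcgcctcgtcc
Epcam: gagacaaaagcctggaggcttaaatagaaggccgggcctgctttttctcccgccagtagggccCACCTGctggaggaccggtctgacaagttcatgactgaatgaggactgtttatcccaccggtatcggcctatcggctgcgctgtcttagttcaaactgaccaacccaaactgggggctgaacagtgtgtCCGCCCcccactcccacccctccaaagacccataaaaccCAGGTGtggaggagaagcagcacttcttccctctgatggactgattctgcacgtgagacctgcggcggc

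CAGGTG was present once in the windows of Krt8, Krt18 and Krt7 and 2 times in that of Epcam. Over all 32851 promoter windows of the same length, 20.2% hold it. Of the 16 genes with a bright clone 12 had a window, and CAGGTG was in 7 of those 12 (also in Cldn3, Cldn7 and F11r), where 22.6% of all genes with a window hold it in at least 1 window. CAGGTG was in 13 of all 35 junction genes with a window. GGGCGG was present 4 times in Krt7 and once in Epcam, and is in 35.7% of all windows. It was in 10 of the same 12 genes, Ctnnbl1 among them, and in 23 of the 35, where 38.2% of all genes hold it. TATAAA was read in Krt8 on both strands at overlapping positions, and is in 13.6% of all windows. It was in 2 of the same 12 genes and in 5 of the 35, where 15.7% of all genes hold it. Among the windows shown AGAACA was present once, in Krt18, and it is in 19.0% of all windows. It was in 2 of the same 12 genes, Krt18 and Ctnnbl1, and in 6 of the 35, where 21.3% of all genes hold it. Ctnnbl1 is counted by its symbol and is not a junction protein. The full palindromic response element, with both arms, was in 3 of all windows and in 0 of those of the 35 junction genes that had one. These are matches of letters in a short window and no evidence of binding.

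All 8 keratin clones, from 4 genes, were in the brightest 25% in every control channel. The 3 Krt18 clones read 5921, 6676 and 5830 in Cy3 of control pair 1 and 22635, 15448 and 13349 in Cy3 of control pair 2, and none of their channel ranks was below percentile 97.6. Krt7, the type II keratin of ducts, read 7763 and 12363 in Cy3 and Cy5 of pair 1 and 17748 and 13575 in pair 2, percentile 98.1 or higher in each. Krt19, the smallest type I keratin, read 1690 and 3311 in pair 1 and 10856 and 9593 in pair 2, from percentile 94.8 to 97.2. Of the 3 Krt8 clones, 1033 and 11404 were at percentile 97.6 or higher in all channels. The spots of clone 1033 disagreed in pair 2, at 21559 in Cy3 and 26903 in Cy5 for the one and at 4227 and 4117 for the other. Clone 14335 read 4572 and 9916 in pair 1, like the other clones of the gene, but 1982 and 2020 in pair 2, percentiles 80.8 and 82.9. Keratins of stratified epithelium and hair are not analysed here, since none of the 18 genes fixed for them has a clone with a single symbol.

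Epcam, an adhesion protein of simple epithelia that binds claudins, had the brightest clone outside the keratins, with 2835 and 4664 in pair 1 and 16527 and 16417 in pair 2. Its ranks ran from percentile 97.1 to 98.6. Cd44, the hyaluronan receptor, was split between its clones. Clone 8591 was dim, at percentile 12.6 or lower in all channels, while clone 12041 ran from 35.0 to 81.3.

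Of the 8 clones of tight junction proteins, 4 were bright in all channels. Cldn7, a claudin of the collecting duct, read 1905 and 3143 in pair 1 and 4856 and 5227 in pair 2, and Cldn3, a sealing claudin, read 1590 and 2236 in pair 1 and 3663 and 3775 in pair 2. Their ranks were at percentile 91.1 or higher. Tjp1 (ZO-1), the scaffold below the junction, read 1110 and 1388 in pair 1 and 2981 and 2634 in pair 2. F11r (JAM-A) had clone 2837 at percentile 82.4 or higher and clone 3237 between 70.8 and 84.4. Cldn12 ran from percentile 58.1 to 75.1. Cldn6, a claudin of embryonic epithelia, was between 8.54 and 70.1. Cldn8, which acts as a partner of other claudins in the collecting duct, was dim, with 332 and 280 in pair 1 and 420 and 736 in pair 2, at percentile 31.9 or lower. Of the claudins linked to the collecting duct, Cldn3 and Cldn7 were thus bright while Cldn8 was dim.

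No clone of the 7 classical cadherins was bright in all channels, and 4 of the 8 were dim in all of them. Cdh1, the cadherin that defines epithelia, gave 401 and 387 in pair 1 and 382 and 889 in pair 2 at clone 7893, and 333, 289, 358 and 844 in the same channels at clone 10554. Clone 10554 was in the dimmer 50% in every channel and clone 7893 in 3 of 4, with percentile 62.4 in Cy5 of pair 1. Cdh3 (P-cadherin) was the brightest of the group, from percentile 74.6 to 86.5. Cdh2 (N-cadherin) ran from 57.9 to 74.3. Cdh5, the cadherin of endothelium, was at percentile 37.8 or lower, Cdh11, a mesenchymal cadherin, at 43.3 or lower, and Cdh18, a neuronal cadherin, at 40.3 or lower. Cdh22 ran from percentile 27.2 to 68.2.

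The catenins, which tie cadherins to actin, gave 2 bright clones of 10. Ctnnb1 (beta-catenin) read 1513 and 1744 in pair 1 and 6919 and 5057 in pair 2, at percentile 93.4 or higher. The 3 clones of Ctnna1 (alpha-catenin) stood apart from each other. Clone 6600 was bright, at percentile 86.4 or higher, clone 12379 was at 96.5 in pair 1 but at 73.1 and 69 in pair 2, and clone 8857 was at 32.0 or lower in all channels. Among the 3 clones of Ctnnd1 (p120-catenin), 7395 was at percentiles 22.7 and 55.8 in pair 1 and at 93.5 and 94.2 in pair 2. The clone of Ctnna3, an alpha-catenin of heart and testis, was at percentiles 9.05 and 26.1 in pair 1 and at 91.3 and 90.4 in pair 2.

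**Figure D1:**
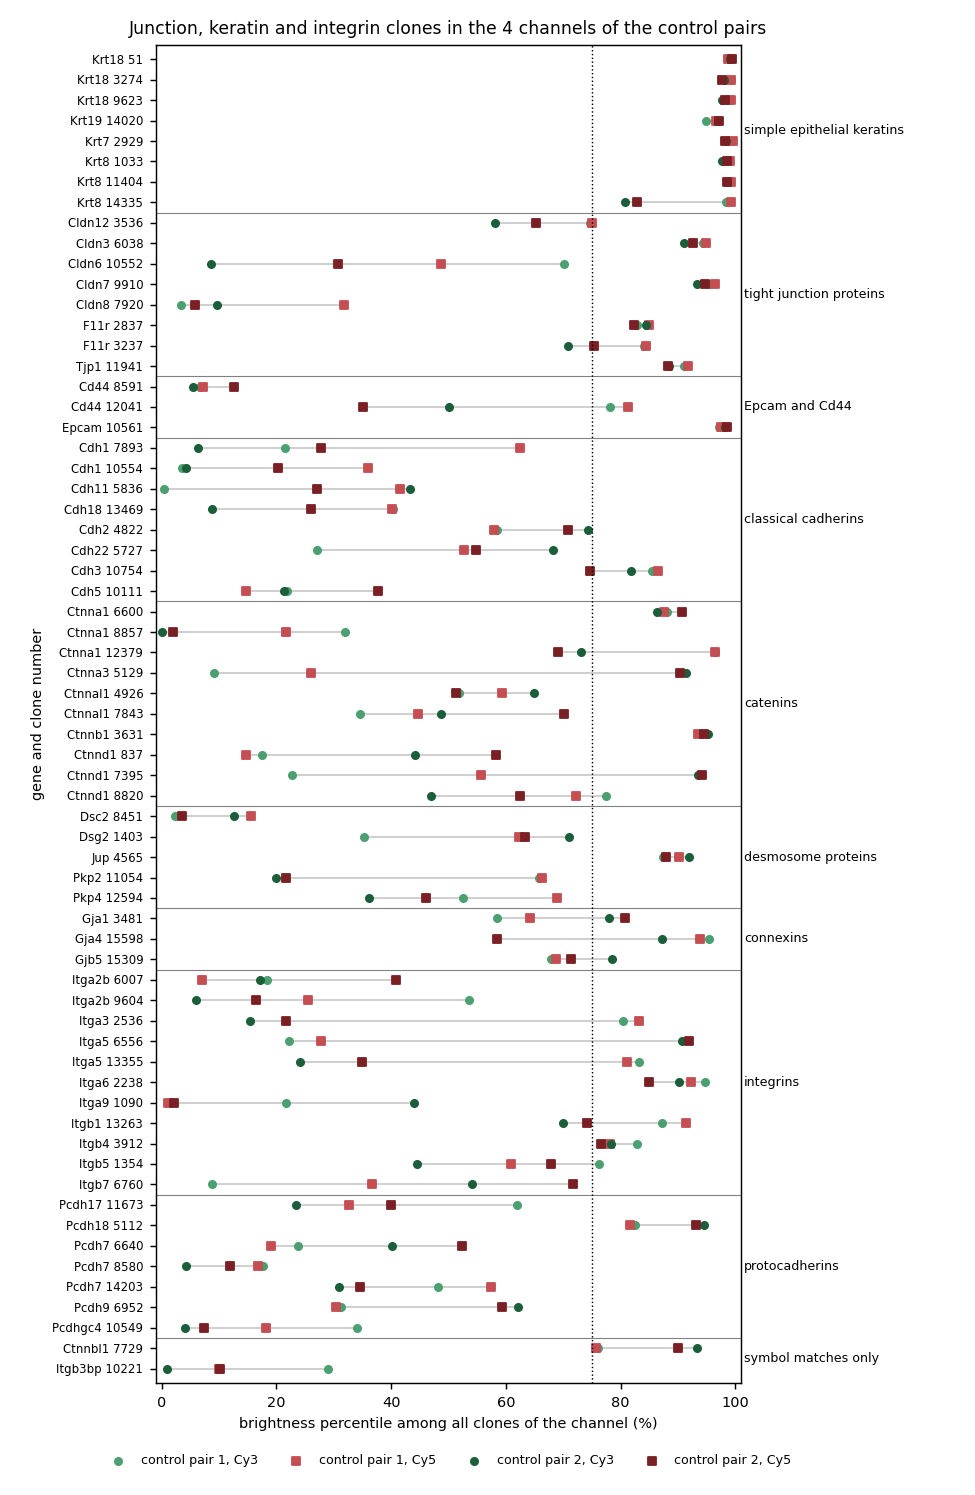
Brightness percentile (x axis, percent of all clones in the channel) of the 65 clones (y axis, gene and clone number, by group) in the 4 channels of the control pairs, with circles for Cy3, squares for Cy5, pale colours for pair 1 and dark ones for pair 2. The dotted line marks percentile 75, and the 8 keratin clones and Epcam lie to its right in every channel while both Cdh1 clones lie to its left.

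Among the 5 desmosome clones, Jup (plakoglobin, shared by desmosomes and adherens junctions) was bright, with 888 and 1192 in pair 1 and 3953 and 2574 in pair 2. Dsg2 (desmoglein of simple epithelia) ran from percentile 35.3 to 71.0. Its partner Dsc2 was dim, with 324 and 242 in pair 1 and 448 and 707 in pair 2, at percentile 15.5 or lower. Pkp2, a plakophilin of simple epithelia and heart, was at percentiles 65.7 and 66.4 in pair 1 and at 19.9 and 21.7 in pair 2, and Pkp4 ran from 36.1 to 68.9. The connexins of gap junctions had no clone bright in all channels and none dim in all. Gja1 (connexin 43) ran from percentile 58.4 to 80.7, Gjb5 from 67.8 to 78.5 and Gja4 from 58.5 to 95.4.

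Of the 11 integrin clones 2 were bright, Itga6 and Itgb4, which form the laminin receptor of hemidesmosomes. Itga6 read 1662 and 1501 in pair 1 and 3384 and 2195 in pair 2, and Itgb4 read 750 and 594 in pair 1 and 1797 and 1645 in pair 2. Itgb1, the common beta subunit, was at percentiles 87.2 and 91.5 in pair 1 but at 74.2 or lower in pair 2, just outside the class. Itga3, a laminin-binding partner of Itgb1, was at percentiles 80.5 and 83.2 in pair 1 and at 15.4 and 21.7 in pair 2. The 2 clones of Itga5, the fibronectin receptor subunit, went opposite ways, with clone 6556 at percentiles 90.8 and 92.0 in pair 2 only and clone 13355 at 83.2 and 81.1 in pair 1 only. Itga2b, the platelet integrin, was at percentile 53.5 or lower at both clones, and Itga9 at 43.9 or lower. Itgb7, a leukocyte integrin, ran from 8.79 to 71.7. Of the 7 protocadherin clones only that of Pcdh18 was bright, with 739 and 693 in pair 1 and 6046 and 4004 in pair 2, the latter pair from 1 spot. The 3 Pcdh7 clones were at percentile 57.4 or lower.

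How far these ranks repeat can be read from the 2 pairs and from the 2 spots of a clone. The mean ranks in pair 1 and pair 2 correlated across the 65 clones at r = 0.702, against 0.595 across all clones, and the median shift between pairs was 14.2 percentile points (14.6 over all clones). Between the 2 spots of a junction clone the median difference was 0.17 to 0.21 on the log2 scale by channel. A shift of over 50 points between pairs was seen in 5 junction clones (7.69%, against 5.84% of all clones). They were Ctnna3 5129, Ctnnd1 7395 and Itga5 6556, brighter in pair 2, and Itga3 2536 and Itga5 13355, brighter in pair 1. Both dyes of each shifted the same way.

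**Figure D2:**
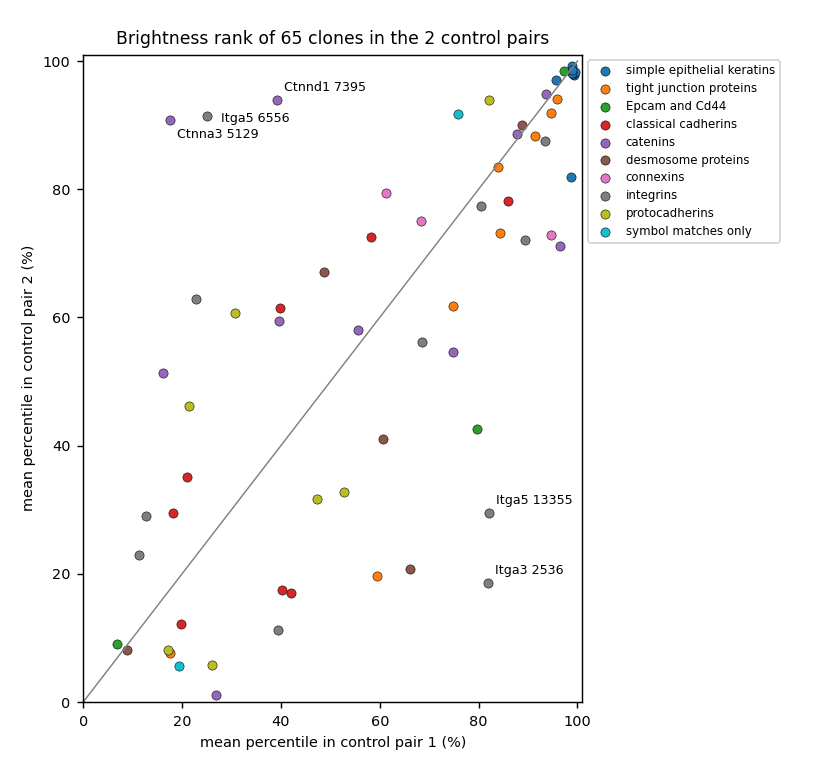
Mean brightness percentile of each of the 65 clones in control pair 1 (x axis) and control pair 2 (y axis), coloured by group, with the line of equal rank. Keratin clones other than Krt8 14335 gather with Epcam in the upper right corner, and the 5 clones named on the plot shifted by over 50 points between the pairs.

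Clones of the same gene also differed. Of the 11 genes with several clones, 5 had all their clones in 1 class. These were Krt8 and Krt18, with every clone bright, and Ctnnal1, Ctnnd1 and Itga5, with every clone mixed. The mean percentiles of the clones of a gene spanned 74.3 points for Ctnna1, 53.1 for Cd44, 32.9 for Ctnnd1 and 30.1 for Pcdh7. For the other 7 genes the span was at most 13.5 points (Cdh1) and as small as 0.546 (Krt18), and the 2.37 points of Itga5 average over pairs in which its clones went opposite ways. A statement on a gene with 1 clone, such as Cldn8 or Dsc2, thus rests on a measurement whose clone-to-clone error is unknown.

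**Figure D3:**
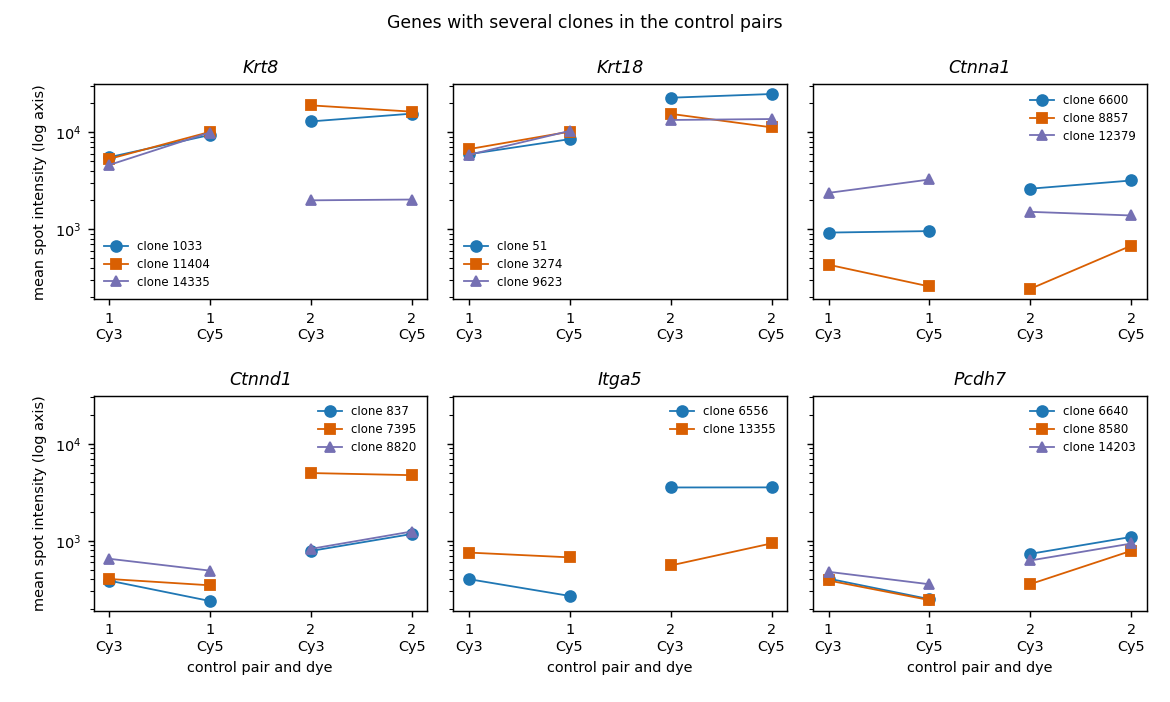
Mean spot intensity (y axis, log scale) of each clone of 6 genes in the 4 channels of the control pairs (x axis, pair and dye), with a line joining the channels of a pair. The 3 Krt18 clones run together, whereas Krt8 clone 14335, the Ctnna1 clones and the 2 Itga5 clones separate from the other clones of their gene.

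Lists of marker genes fixed with earlier results of these data known gave the same measure for other cell types. Mesenchymal and fibroblast markers (15 genes measured) had 1 of 23 clones bright, clone 6769 of Dcn. Vim (vimentin) was at percentiles 26.8 and 30.1 in pair 1 but at 80.8 and 84.4 in pair 2, where it was in the brightest 25%. Endothelial markers (5 of 12 genes measured) had 0 of 5 bright, leukocyte markers (4 of 16 genes) 0 of 4 and proximal tubule markers (2 of 11 genes) 0 of 3. Of all clones 14.7% were bright, and of those with a single symbol 18.5%. Lists this small cannot tell 0 from such shares. Neural and muscle markers (3 genes) had 1 of 3 bright, that of Tubb3, a neuronal tubulin, which lay between percentiles 86.6 and 93.3. Epithelial genes outside the families above (23 genes) had 10 of 35 clones bright, among them Spint1 and Spint2, protease inhibitors of epithelia, and Plec, the linker of keratin to hemidesmosomes. Another 2, those of Muc1 and Patj 5065, were dim in all channels. The bright clones came from 6 of the 23 genes, so most genes of this list had none. Among those without a bright clone were Crb3, Elf3, Klf5, Prom1, Evpl and Esrp1. Proteins that link cadherins and integrins to actin (16 genes) had 9 of 24 bright, including all 3 clones of Actn1, and 2 dim, Vcl and Iqgap1 3643. Of 25 collecting duct markers 10 were measured. Of these the keratins, Cldn3 and Cldn7 were bright, Slc4a1 and Gata3 were not, and Ehf, an epithelial transcription factor, was dim at both clones. The water channel and sodium channel genes that define the principal cell are not analysed here.

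On the treated arrays 35 of the 65 junction clones, from 33 genes, had at least 1 listed spot, a share of 53.8% against 51.8% of all clones. On 2 or more arrays 6 were listed (9.23%, against 13.7%), and 1 was listed on all 3 (1.38% of all clones). The other 30 clones, among them all 3 of Krt18 and those of Epcam, Cldn7, Tjp1, Ctnnb1, Jup, Itga6 and Itgb4, gave no treated value. Ratios below are log2 Cy5/Cy3 centred within each array, and a difference is the treated minus the control mean. Of 42 treated values 34 rest on 1 of the 2 spots, and because only outlying ratios are listed, the size of a treated ratio can be overstated and its SD understated. The same selection places most listed ratios beyond both control ratios, 43.7% of all clones above and 40.7% below, so a lack of overlap is a description only.

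No junction clone was called higher or lower after dexamethasone. In limma's test of treated against control pairs over 8056 clones, 0 of the 35 were higher and 0 lower at an adjusted p under 0.05, where 0% and 0.0124% of all clones were called. Before adjustment, 4 junction clones were higher and 3 lower at a p under 0.05, against 16.5% and 15.9% of all clones, and the smallest limma adjusted p among them was 0.145. Fits of the separate channels, or of Cy5 alone, called 0 junction clones in either direction. With the treated values kept only where both spots were listed, which leaves 8 junction clones among 1230, limma called 1 junction clone higher and 0 lower, where 8.46% of all these clones were called higher and 7.97% lower.

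That clone was 6600 of Ctnna1, the only junction clone listed on all 3 treated arrays. Its 2 spots read 267 and 282 in control Cy3 and 623 and 545 in treated Cy5 on the array of treated pair 1. In treated pair 2 a single spot read 692 in Cy3 and 1204 in Cy5, and in treated pair 3 a single spot read 4509 and 6574. The centred ratios were 1.18, 0.81 and 0.57, and the control pairs gave -0.05 and 0.43, both below the treated values. The treated mean was 0.85 ± 0.31 (SD, log2, n = 3) and the limma difference 0.66 with a standard error of 0.26 (adjusted p = 0.145), higher in 3 of 3 treated pairs. Without control pair 1 it was 0.42. From both spots alone it rests on treated pair 1, with a difference of 0.99 and an adjusted p of 0.0452 in limma. On the scaled log2 scale, which is log2 intensity minus the channel's median over the clones valued in all 5 pairs, control Cy3 stood at -0.58, 0.32 and 2.51 on the treated arrays and at 0.98 and 1.62 on the control arrays. Cy5 stood at 0.62, 1.39 and 3.01 against 1.61 and 1.59, so both channels varied widely between arrays in both directions. The other 2 Ctnna1 clones were not listed on any treated array.

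Both desmosomal cadherins had higher ratios without passing the test. Dsc2 read 349 in Cy3 and 390 in Cy5 in treated pair 2 and 323 and 593 in treated pair 3, each from 1 spot. Its centred ratios were 0.69 and 0.61 against 0.23 and -0.27 in the control pairs, with no overlap between the groups. The difference was 0.67 with a standard error of 0.26 (limma adjusted p = 0.147), and 0.42 without control pair 2. The clone was dim in all 4 channels of the control pairs. Dsg2 was listed at both spots on the array of treated pair 3, with 1296 in Cy3 and 2116 in Cy5, and a centred ratio of 0.69 against 0.38 and -0.25. The plakophilins of the same family went opposite ways in treated pair 2, each from 1 spot, with Pkp4 at 0.66 and Pkp2 at -0.86.

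Gja1 and Itgb1 were listed higher in treated pairs 1 and 3. Gja1 read 786 in Cy3 and 1102 in Cy5 in treated pair 1, from both spots, and 1666 and 2249 in treated pair 3, from 1. Its centred ratios of 0.49 and 0.43 lay above the 0.12 of both control pairs, which is a mean of 2 spots that differed. The spots gave -0.17 and 0.41 in control pair 1 and 0.26 and -0.01 in control pair 2. At the spot listed in treated pair 3, the 0.43 lay just above the 0.41 of control pair 1. Limma gave a difference of 0.34 (standard error 0.21, adjusted p = 0.248). Itgb1 read 1142 and 2001 in treated pair 1 and 5527 and 7481 in treated pair 3. Its ratios were 0.83 and 0.46 against 0.44 and 0.13, so as means of the listed spots the groups did not overlap. The 0.46 is from 1 spot, at which the control pairs gave 0.30 and 0.23. At the other spot treated pair 1 gave 0.57, just below the 0.58 of control pair 1. For Itgb1, limma gave a difference of 0.36 (standard error 0.25, adjusted p = 0.282). It was 0.18 without treated pair 1, 0.55 without treated pair 3 and 0.21 without control pair 2. With median centring the Itgb1 difference turned to -0.21.

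Cdh22 and Pcdh7 were the other clones on more than 1 treated array. Cdh22 was listed lower in treated pairs 1 and 3, with centred ratios of -0.46 and -0.44 against 0.28 and -0.35, and a limma difference of -0.42 with a standard error of 0.27 (adjusted p = 0.266). The difference was -0.10 without control pair 1 and -0.73 without control pair 2. The clone read 12685 in Cy3 and 9465 in Cy5 in treated pair 1 and 7629 and 5547 in treated pair 3, but 416 and 335 in control pair 1 and 1308 and 1126 in control pair 2. Both of its channels were thus brighter on the treated arrays, by 3.88 in Cy3 and 3.61 in Cy5 (scaled log2), and with Cy5 alone the difference turned to 3.61. Pcdh7 clone 8580 went opposite ways, at 0.82 in treated pair 1 and -0.71 in treated pair 3.

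**Figure D4:**
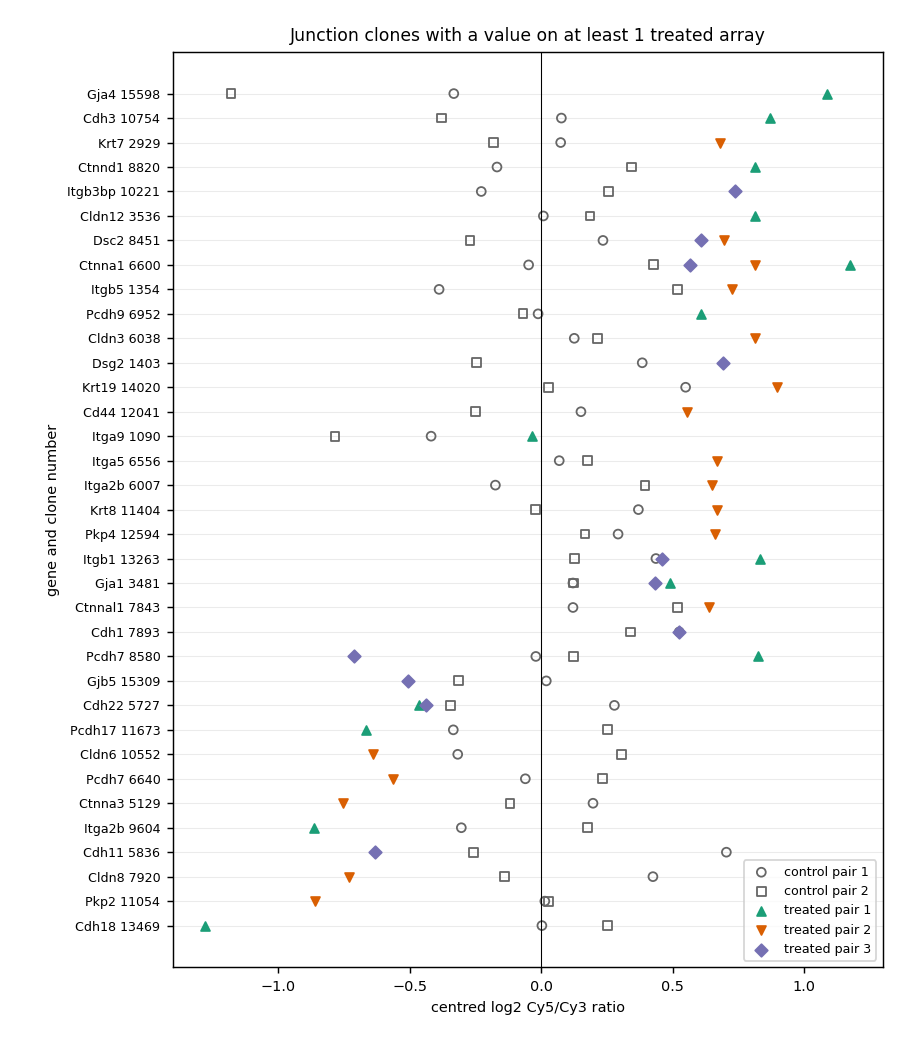
Centred log2 Cy5/Cy3 ratio (x axis) of the 35 clones with a treated value (y axis, gene and clone number, ordered by difference), with open symbols for the control pairs and filled symbols for the treated pairs. Most clones have 1 filled symbol, and Ctnna1 6600 is the clone with 3, all to the right of its control values.

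The 29 clones listed on 1 array spanned differences from -1.41 for Cdh18 to 1.84 for Gja4. The 5 highest were Gja4, Cdh3 (1.02), Krt7 (0.73), Ctnnd1 8820 (0.73) and Itgb3bp (0.72). The 5 lowest were Cdh18, Pkp2 (-0.88), Cldn8 (-0.87), Cdh11 (-0.86) and Itga2b 9604 (-0.80). Each had an adjusted p between 0.145 and 0.206 in limma, where the treated arm is 1 array and the spread comes from the control pairs and from limma's pooling over clones. Without control pair 1, Cdh11 was at -0.37 and Ctnnd1 8820 at 0.47, and without control pair 2 Cdh11 was at -1.34. Itgb3bp was at 0.48 without control pair 1. For Gja4 the treated ratio was 1.09 from 1 spot, and the control ratios were -0.33 and, from a single spot in pair 2, -1.18. The sign in Cy5 alone was opposite for Krt7, Cdh3, Ctnnd1 8820, Itgb3bp and Cdh11. Several of these differences rest on 1 treated spot of low intensity. In Cy3 and Cy5, Cdh3 read 274 and 464, Ctnnd1 8820 read 293 and 481 and Itgb3bp read 185 and 422. Among the lowest, Cdh18 read 297 and 107, Pkp2 508 and 184, Cldn8 471 and 186, and Itga2b 9604 read 488 and 248. Gja4 (703 and 1496), Krt7 (1608 and 2826) and Cdh11 (1873 and 1212) were brighter.

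By family, the 3 listed keratin clones were all from the array of treated pair 2 and all listed higher at 1 spot. Krt19 stood at 0.90 against 0.55 and 0.03, Krt7 at 0.68 against 0.07 and -0.18, and Krt8 clone 11404 at 0.67 against 0.37 and -0.02. Their listed spots were dimmer than on the control arrays, with Krt7 at 1608 in Cy3 and 2826 in Cy5. Of the tight junction clones, Cldn3 was listed at both spots in treated pair 2, with 3530 in Cy3 and 7099 in Cy5 and a ratio of 0.81 against 0.13 and 0.22. Cldn12 stood at 0.81 in treated pair 1, whereas Cldn6 and Cldn8 stood at -0.64 and -0.73 in treated pair 2. Classical cadherins had 2 spots listed higher and 5 lower. Cdh1 was listed at 1 spot of clone 7893, at 0.52 in treated pair 3. The control pairs gave 0.52 and 0.34 as the mean of both spots, so it lay inside these values. At the listed spot alone they gave 0.15 and 0.33, both below the treated ratio. Catenins had 6 spots higher and 2 lower, desmosome proteins 5 higher and 1 lower and connexins 4 higher and 1 lower. Integrins had 7 higher and 2 lower and protocadherins 2 higher and 3 lower. The 2 spots of Itga9 were listed in opposite directions on the same array, at -0.77 and 0.70, and the mean of -0.04 lay above its control ratios of -0.42 and -0.78.

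Counting spots, the junction clones had 34 listed higher and 16 lower over the 3 arrays, 68.0% higher against 50.6% over all clones. By array the counts were 13 and 5, 13 and 6, and 8 and 5. Of the 35 clones, 22 had the treated ratio of each array above both control ratios (62.9%, against 43.7% of all clones). Another 11 lay below both (31.4%, against 40.7%). Each treated ratio is the mean of the listed spots of its array. Among the 22, Itga9 counts by the mean of its opposed spots. Ctnnal1 7843 and Itgb5 count because 1 listed spot is set against the control mean of both spots. At that spot Ctnnal1 7843 stood at 0.64 against 0.74 and 0.70, and Itgb5 at 0.72 against -0.20 and 0.81. Of the 6 clones on at least 2 treated arrays, 4 lay above both (28.5% of all such clones) and 1 below both (27.4%). The median difference was 0.49, against 0.06 over all 8056 clones. With median centring these medians were 0.14 and -0.18, which leaves the junction clones 0.31 above all clones in place of 0.43, and the junction clones were positive in 20 of 35 in place of 24. With Cy5 alone they were -0.32 and -0.19, with 14 of 35 positive, so the direction of the junction clones as a group was not the same in all settings.

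Brightness moved with the listed direction. The 5 listed clones that were bright in all control channels, those of Krt7, Krt8, Krt19, Cldn3 and Ctnna1, had 9 spots higher and 0 lower, while the 8 listed dim clones had 6 and 6. Over all clones the bright ones had 928 spots higher and 613 lower (60.2% higher) and the dim ones 1578 and 1701. In treated pair 3 alone the bright clones of the whole array had 240 higher and 256 lower. The part of brightness in the direction of the junction spots was not tested.

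**Figure D5:**
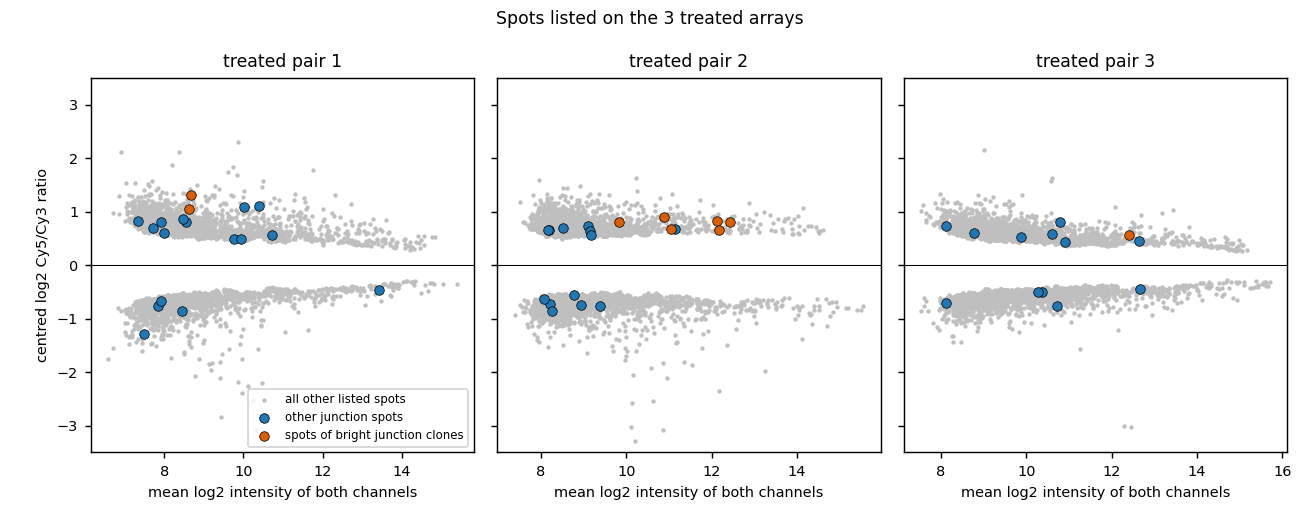
Centred log2 Cy5/Cy3 ratio (y axis) against the mean log2 intensity of both channels (x axis) for every spot listed on each treated array, with junction spots of bright clones in orange and other junction spots in blue. The band around 0 is empty on each array, and the 9 orange spots lie above it.

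Genes of the same pathway outside the families gave no call either, where 0% of all 8056 clones were called higher and 0.0124% lower. The lack of calls thus does not set these genes apart. Of the epithelial genes outside the rule 18 clones were tested in limma, with 0 called higher and 0 lower, and 15 spots were listed higher and 17 lower. Of the cadherin and integrin linkers 17 were tested, with 0 called in either direction, and 16 spots were listed higher and 16 lower. Over all clones 50.6% of listed spots were higher. Mesenchymal markers had 7 spots higher and 7 lower, leukocyte markers 0 and 4, endothelial markers 1 and 1, and proximal tubule markers 3 and 1, and the part of other cell types in these ratios was not tested.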

How the data were processed

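The authors deposited 1 table of spot intensities, in whole numbers, with a column for each of the 10 channels. Per the labels' protocols and the series' design text, cDNA primed with oligo-dT was labelled through dendrimers, slides were scanned in both colours and mean spot intensities were read in Imagene 4.0. The sources used here do not state any background correction or normalisation, or how spots of the treated arrays were chosen. Groups came from titles. Channels were joined by the array or control number in their titles, and in each of the 5 pairs both channels list the same spots.

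Probe genes came from GEO's platform annotation (9866 clones with 1 symbol, 274 with several, 5460 with none here), and 9760 symbols were matched to RefSeq by gene identifier, with 0 changed. For each spot the log2 of Cy5 over Cy3 was taken with no added constant. A lowess curve on intensity centred the control pairs (statsmodels 0.14.6, span 0.2), and treated arrays were centred on the midpoint of the empty band, found in windows of 150 spots and smoothed with a span of 0.3. Spots of a clone were averaged. The main test was limma 3.58.1 in R 4.3.3 on clones with both control values and at least 1 treated value, Benjamini-Hochberg adjusted over the 8056 clones, and it was tested on simulated data. The array is removed as a block by taking the ratio within it. The clones, lists and named members (those listed on at least 2 treated arrays, the 5 highest and 5 lowest on 1 array, and all members by brightness) were chosen with earlier results of these data known. Alternatives covered centring, added intensity, filters, pairing, dye and each pair left out.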

Additional observations from a re-analysis of the deposited data

Results flagged for a closer look

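Gja1 stood apart in 1 control channel. Among the control Cy3 channels with a value for its clone 3481, that of control pair 1 lay at 0.14 (scaled log2) while the other 3 had a median of 1.06. Its distance from the next lowest made up 0.852 of the range of these channels. Of 6 junction clones with at least 4 control Cy3 values 1 stood apart in this way, and chance flags about 1 in 20. The channel on the array of treated pair 1 read 0.94 and that of treated pair 3 read 1.07.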

How the results depend on the processing

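Over all clones, keeping only treated values from both spots gave 104 clones higher and 98 lower in place of 0 and 1, and 1 junction clone higher in place of 0, among fewer clones tested. Testing treated pairs against 0 gave 1 higher, median centring gave 3 lower, and leaving out a pair gave 0 to 1 higher and 0 to 7 lower. For the pairing of channels on an array, fits of separate channels with no replicate block, with a random replicate block and of Cy5 alone gave 0 lower. The array as a block is the design's own pairing, since both channels share it. The median junction difference of 0.49 was 0.14 with median centring, -0.15 with no replicate block and -0.32 with Cy5 alone, and 0.35 to 0.55 without a pair. The median brightness percentile of 61.1 was 58.3 in Cy3, 62.8 in Cy5, 62.4 with 1 clone per gene and 62.9 to 66.1 without a control pair. The 20 bright clones of 65, where 14.7% of all clones were bright, became 24 without control pair 1 and 28 without control pair 2. In these settings 22.0% and 21.9% of all clones were bright. They became 16 of 63 where both spots had to be bright (12.8% of all clones) and 16 of 49 with 1 clone per gene. Spots listed higher fell from 34 to 10, and lower from 16 to 4, where both spots had to be listed, and ranged from 21 to 26 and from 10 to 11 without a treated pair.

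Of 196 values for 16 named clones under 15 settings, 22 changed sign. With no replicate block, with a random replicate block and with Cy5 alone, Cdh22 was 3.56, 0.40 and 3.61 and Pcdh7 8580 was -0.80, -0.12 and -0.90. With no replicate block and with Cy5 alone, Cdh11 was 0.82 and 0.73, Itgb3bp -0.47 and -0.50, Ctnnd1 8820 -0.046 and -0.11, Krt7 -1.97 and -1.88 and Cdh3 -0.68 and -0.75. Pcdh7 8580 was -0.50 with median centring, -0.035 with no centring, -0.041 with 50 added and -0.76 to 0.77 without a pair (-0.06 without control pair 1). Itgb1 was -0.21 with median centring. The cause of these changes was not tested. Only outlying treated spots, mostly 1 per clone, limit the precision.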

Other observations

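In 3 clones, chosen after their values were seen, intensity differed more between the control arrays than between the dyes of an array. The median intensity over all spots was also higher in control pair 2 than in control pair 1, in both dyes. A difference in intensity between the control arrays is thus not particular to these 3 clones. Their ranks among all clones of the same channel were also higher in control pair 2. Itga5 clone 6556 read 403 and 270 in control pair 1 and 3544 and 3550 in control pair 2, and 1712 and 2996 in treated pair 2. Pcdh18 read 739 and 693 in control pair 1 and 6046 and 4004 in control pair 2. Ctnna3, whose known sites are heart and testis, read 361 and 267 in control pair 1 but 3733 and 3059 in control pair 2, and 810 and 416 in treated pair 2.

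One more clone carries the symbols of Itga2b and of a second gene and was left out. Of the 49 junction genes, 16 had no listed spot on any treated array.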
